A study of Oncorhynchus mykiss with 16 samples.

Results

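The end points of adipogenesis in cultured trout cells were compared, with the arrays of day 21 set against those of day 3. These are 8 of the 16 arrays in the series, 4 at each day, and the other 8 are from days 8 and 15 of the same cultures. Each culture, named by its label number (4, 8, 9 and 10), was started from a separate pool of visceral white adipose tissue from several rainbow trout (Oncorhynchus mykiss), so both arrays of a culture come from the same pool and were compared as a pair. RNA was labelled with Cy3 and hybridised to an Agilent trout oligonucleotide array, 1 array for each culture and day.

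At day 3 the cells were in growth medium, Leibovitz's L-15 with fetal bovine serum. The treatment protocol calls them mesenchymal stem cells, but the series description calls them proliferating preadipocytes. From confluence at day 8 the same medium was supplemented with insulin, 3-isobutyl-1-methylxanthine (IBMX), dexamethasone and a lipid mixture. The protocol calls the cells of day 21 mature adipocytes. Serum and medium were thus common to both days, but time in culture, confluence and the 4 added agents changed together and cannot be told apart in this comparison. All cells of a flask were extracted together, so fewer cells of a type and less RNA per cell cannot be told apart either.

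White adipocytes arise from fibroblast-like precursors that proliferate, become confluent and then differentiate under hormonal induction. In mammals, differentiating cells express the nuclear receptor PPAR gamma and C/EBP factors, take up glucose and fatty acids through transporters, and store triglycerides in lipid droplets. Proteolysis and autophagy accompany this change by removing cytoskeletal proteins and organelles of the precursor cell.

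The array carried 62976 spots, of which 61657 were not controls and represented 60195 probes. Between 65.5% and 80.5% of the spots were well above background (the scanner software's own detection flag) on the arrays of day 3, against 67.0% to 76.3% at day 21, and 0 spots were saturated. The values given below are log2 signals relative to the 75th percentile of the same array, a percentile that lay between 561 and 834 units of signal at day 3 and between 518 and 808 at day 21. Testing was limited to the 40391 probes with values from all 8 arrays and with 1 or both days at which each of the 4 arrays was well above background. Of the rest, 595 were missing on 1 or more arrays and 19209 were too dim. The pairs of arrays within day 3 correlated at 0.969 to 0.986 across the tested probes, those within day 21 at 0.941 to 0.977, and pairs from different days at 0.885 to 0.924. These correlations run across probes, which are not independent. The files identify nearly all probes by a transcript contig, a sequence read or a GenBank accession without a gene name, so results are counted in probes.

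Between day 3 and day 21, 3301 probes (8.17% of those tested) changed by more than 3-fold with an adjusted p under 0.02 (limma, paired by culture, with Benjamini-Hochberg adjustment over all tested probes). Of these, 1527 (3.78%) were higher and 1774 (4.39%) were lower at day 21. Which direction had more calls depended on the normalization. More were higher with the deposited normalized values (1849 against 1568 lower), quantile normalization (1648 against 1592) and normexp background correction (968 against 873). More were lower when the percentile was taken over probes well above background (1454 higher against 1824). Without culture 8 the number called was 1427, and with normexp background correction it was 1841. Below, a probe is said to be called when it met both criteria, and to have risen or fallen when it met the adjusted p alone. The adjusted p alone was met by 8503 probes (21.1%), with 3945 (9.77%) higher and 4558 (11.3%) lower, and by 3860, 1488 and 2967 without culture 4, 8 or 9. The higher probes thus made up 46.4% of the 8503, but 57.1% with the deposited normalized values, whose scaling moved the median difference of all tested probes by 0.12. The median difference of all tested probes was -0.05 on the log2 scale, with quartiles at -0.53 and 0.42.

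**Figure D1:**
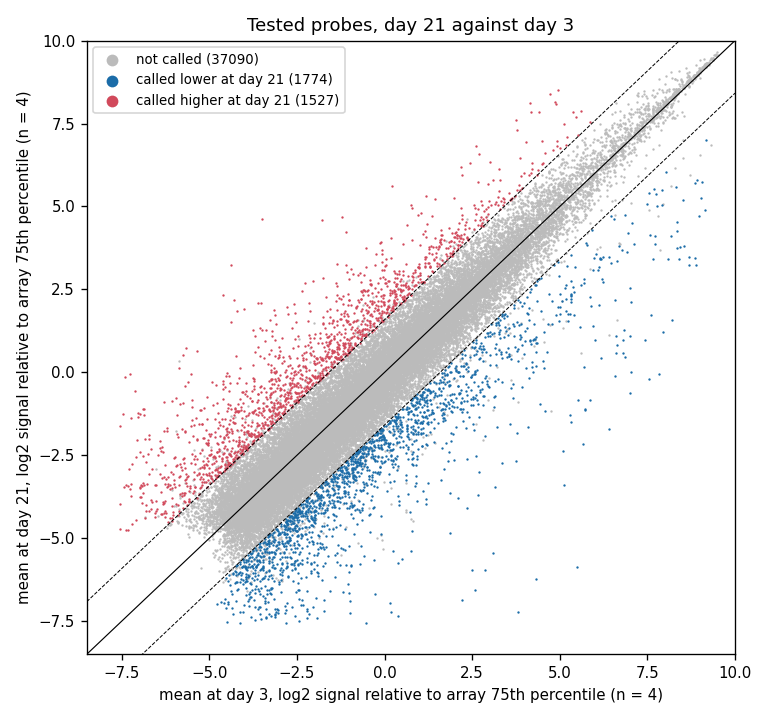
Mean log2 signal of each tested probe at day 21 (vertical axis) against day 3 (horizontal axis), relative to the 75th percentile of the array, n = 4 cultures at each day. The solid line marks equal levels and the dashed lines a 3-fold ratio, and the 1527 probes called higher and 1774 called lower lie outside the dashed lines at all levels of signal.

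The changes were large for many of the called probes. The median difference was 2.22 among those higher at day 21 and 2.32, in size, among those lower. More than 8-fold separated the days for 341 higher and 465 lower probes, and more than 32-fold for 38 higher and 85 lower probes. All 8 arrays were well above background for 1124 of the higher and 1159 of the lower probes. For 92 higher probes 0 of the 4 arrays of day 3 were well above background, and for 166 lower probes 0 of the 4 arrays of day 21 were, so that only a bound is known for these ratios. On the same dim day, 311 further higher and 449 further lower probes had only 1 to 3 arrays well above background. Their ratios rest in part on undetected signal, and the counts beyond 8-fold and 32-fold include both kinds. The share of called probes was 10.8% among the 10098 tested probes with the lowest signal, then 7.62% and 7.74% in the next groups of equal size, and 6.53% among those with the highest signal. The detection filter let a dim probe in when it was detected throughout 1 day, which favours a difference at low signal. These shares therefore do not show how change depends on signal.

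Called probes were spread over all kinds of identifier. Transcript contigs gave 8.18% of 22603 tested probes, GenBank accessions 9.04% of 5854, and sequence reads 7.71% of 11877. The levels of the 4 cultures at day 21 did not overlap those at day 3 for 13306 tested probes (32.9%), of which 6181 were higher (15.3%) and 7125 lower (17.6%), and for 1442 of the 1527 higher and 1624 of the 1774 lower called probes. The levels of the remaining called probes overlapped between the days.

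All 1527 higher and all 1774 lower probes moved in the same direction in 4 of 4 cultures, which their choice on these same cultures favours. The difference exceeded 3-fold in each of the 4 cultures for 641 higher and 776 lower probes, and in 3 of 4 for another 605 and 678. The size of the difference was not the same in each culture. Its median over the higher probes was 2.35 in culture 4, 2.47 in culture 8, 2.29 in culture 9 and 2.00 in culture 10. Over the lower probes it was -2.55 in culture 4, -2.56 in culture 8, -2.23 in culture 9 and -2.05 in culture 10. Culture 10 thus had the smallest median in both directions, and it had the smallest difference of the 4 cultures for 709 higher and 710 lower probes. Among called probes with all 8 arrays well above background, its medians were 1.80 and -1.87, against 2.25 to 2.38 and -2.50 to -2.14 in the other cultures. Its array of day 3 had the lowest share of spots well above background of the 8 arrays (65.5%), and its array of day 21 the next lowest (67.0%). The part of this in the smaller differences was not tested.

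A culture left out of the fit gave the direction again in most cases. The detection filter had used the arrays of every culture, the left-out one included. This favours the same direction for probes that were dim at either day, so the left-out culture was not independent of the choice. For the probes called in cultures 8, 9 and 10, the left-out culture 4 moved in the same direction for 98.5% of 1233 higher and 96.9% of 1482 lower probes. Culture 8 did so for 98.7% of 711 and 99.6% of 716 probes, and culture 9 for 99.6% of 1123 and 98.0% of 1271. Culture 10 moved in the same direction for 95.3% of 1658 higher and 90.8% of 1995 lower probes. Among all tested probes, 44.6% to 49.0% of the differences of a single culture were above 0 and 51.0% to 55.4% below. The left-out difference passed 3-fold for 50.3% and 49.4% of the probes in culture 10, and for 72.0% to 88.0% in the other cultures, against 4.79% to 7.21% of all tested probes. Each set of called probes has its own size, so the cultures were not ranked by these shares.

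Most of the difference between the end points was present by day 15. The median level of the 1527 higher probes was lowest at day 3 (-2.39), then -0.90, -0.07 and 0.14 at the following days. That of the 1774 lower probes was -0.69 at day 3, then -1.93, -2.81 and -3.05. Per probe, the median share of the difference between days 3 and 21 that was present at day 8 was 59.3% for the higher probes (quartiles 37.1% and 81.7%) and 50.5% for the lower probes (quartiles 37.0% and 67.0%). At day 15 the medians were 93.4% and 88.6%. Since days 3 and 21 chose the probes and form the denominator, these shares are a description and were not tested.

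In single cultures the share at day 8 lay between 54.4% (culture 4) and 64.6% (culture 10) for the higher probes. For the lower probes it lay between 43.1% (culture 10) and 65.4% (culture 9). The order of the cultures thus differed between the 2 directions. At day 15 the cultures ranged from 87.8% to 99.8% for the higher and from 79.2% to 96.2% for the lower probes, with culture 9 highest in both.

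**Figure D2:**
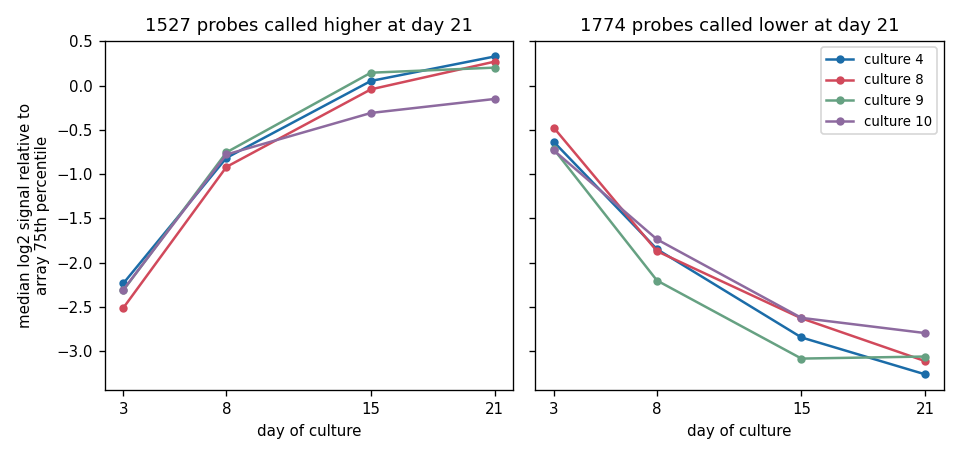
Median log2 signal, relative to the 75th percentile of the array, of the 1527 probes called higher (left) and the 1774 called lower (right) at days 3, 8, 15 and 21, with 1 line per culture. All 4 cultures end on the same side of their start. The line of culture 9 in the right panel turns slightly upward in the last step, from -3.08 to -3.06. Culture 10 ends nearest to its starting level in both panels. The medians of its differences per probe, which are not plotted, were 2.00 and -2.05.

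The probes did not all follow this course. The means moved in 1 direction over all steps for 918 of the higher probes (60.1%) and 1246 of the lower (70.2%). The highest mean lay at day 8 for 102 of the higher probes, at day 15 for 391 and at day 21 for 1034. The lowest mean lay at day 8 for 37 of the lower probes, at day 15 for 385 and at day 21 for 1352. A distance of more than 3-fold from day 3 had been reached by day 8 for 590 higher and 564 lower probes, and by day 15 for 1240 and 1351. At day 8, 59 higher and 57 lower probes stood on the other side of their day 3 level.

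The spread between cultures is given as a description. The median SD of the tested probes between cultures was 0.29 at days 3 and 15, 0.33 at day 8 and 0.34 at day 21, and the SD at day 21 exceeded that at day 3 for 60.6% of the probes. Slides were unevenly used. Slide 1 held 3 arrays of day 3, slide 2 held 1, and each slide held 2 of day 21. Within slide 1, where only culture 9 has both days, 2802 probes were called, 1269 higher and 1533 lower. Within slide 2, 1 array of day 3 stood against 2 of day 21 and the lone array was assumed to vary like the others. There limma called 0 probes after adjustment, with 6236 at an unadjusted p below 0.05.

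The largest rises are given for called probes measured well above background at both days in each culture. The probe CB498333.s.om.10 stood at -2.12, -5.44, -3.80 and -2.61 at day 3 in cultures 4, 8, 9 and 10, and at 7.12, 2.22, 4.43 and 4.72 at day 21. The order of the cultures was the same at both days, and the days were far apart in all 4. The difference was 8.11 (standard error 0.33, adjusted p = 0.000418, limma), a 276-fold ratio.

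TC115364 stood at -4.57, -4.39, -4.64 and -3.91 at day 3 and at 3.94, 3.97, 3.82 and 1.15 at day 21. Culture 10 ended clearly below the other cultures, but well above its own start, and the difference was 7.60 (standard error 0.61, adjusted p = 0.00154, limma). GAY7CUQ02HXZR5.s.om.10 went from -4.36, -4.08, -3.66 and -3.98 to 2.08, 1.89, 1.52 and 2.11. Its cultures lay close together at both days, and the difference was 5.92 (standard error 0.24, adjusted p = 0.000418, limma).

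Another pair of probes rose most in culture 4. FZ8DYKY01CFTDK.s.om.10 went from -1.14, -1.93, -2.22 and -1.87 at day 3 to 7.26, 3.42, 4.24 and 3.42 at day 21, a difference of 6.38. FZ8DYKY01D5PDA.s.om.10 went from -0.67, -1.52, -1.42 and -1.29 to 7.28, 3.61, 4.43 and 3.36, a difference of 5.90. The profiles of these probes over the 16 arrays correlated at 0.999, and whether they measure 1 transcript is not analysed here. At day 8 their means stood at 15.5% and 15.1% of the rise, with culture 8 below its start, below the median of 59.3% of all higher probes, whereas CB498333.s.om.10, TC115364 and GAY7CUQ02HXZR5.s.om.10 stood at 51.5%, 56.9% and 61.8% in the mean.

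The largest falls, chosen in the same way, were of similar size. TC117384 stood at 3.09, 5.99, 3.37 and 8.02 at day 3 in cultures 4, 8, 9 and 10, and at -3.70, -1.74, -4.64 and -3.52 at day 21. The cultures were widely spread at day 3, yet the lowest of them was above all 4 at day 21. The difference was -8.51 (standard error 0.74, adjusted p = 0.00179, limma), a 366-fold ratio.

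TC96135 fell from 8.42, 7.09, 7.36 and 8.48 to 2.67, 0.92, -0.56 and -3.19, a difference of -7.88 (standard error 0.95). TC97868 fell from 8.12, 6.93, 6.97 and 8.17 to 2.69, -0.27, -1.15 and -2.03, a difference of -7.74 (standard error 0.71). In both, culture 10 was highest at day 3 and lowest at day 21, where culture 4 was highest, and the SD was 0.72 and 0.69 at day 3 and 2.48 and 2.05 at day 21. TC95207 and CU070267.s.om.10 had differences of -7.82 and -7.63 and the same order of cultures at day 21. The profile of CU070267.s.om.10 over the 16 arrays correlated with that of TC97868 at 0.999, and TC95207 correlated with TC97868 at 0.990. These 5 probes had between 46.6% and 50.7% of their fall behind them at day 8 and between 75.2% and 80.5% at day 15.

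**Figure D3:**
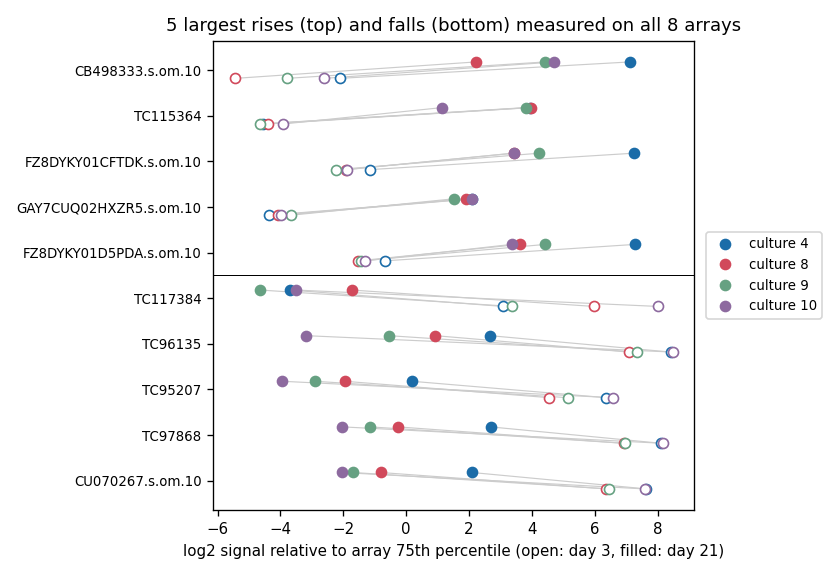
Log2 signal, relative to the 75th percentile of the array, of the 5 largest rises (top) and 5 largest falls (bottom) among called probes well above background on all 8 arrays, with open circles for day 3 and filled circles for day 21, 1 colour per culture. No open circle overlaps the filled circles of the same probe, and differences run from 5.90 to 8.11 at the top and from -8.51 to -7.63 at the bottom.

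The most regular changes were smaller. TC105391 went from -1.93, -1.82, -1.72 and -1.87 at day 3 to -0.06, 0.03, 0.09 and -0.09 at day 21, a rise of 1.82 (standard error 0.15). TC101609 went from 0.59, 0.76, 0.66 and 0.57 to -1.62, -1.51, -1.53 and -1.73, a difference of -2.24 (standard error 0.15). The 4 cultures lay close together at both days, with SDs of 0.09 and 0.08 for TC105391 and of 0.08 and 0.10 for TC101609. TC117733, with a rise of 1.71, and TC122603, with a difference of -2.39, had the same standard error but cultures that were further apart. Each of these 14 probes kept its direction and an adjusted p below 0.02 under all 15 alternatives run on both slides, and lost it within slide 2.

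The files give a readable gene name or a matched RefSeq accession for 60 probes, and 42 of these were tested. Of the 42, 1 was called higher and 1 lower (8.17% of all tested probes were called in either direction), while 10 rose and 2 fell at the adjusted p alone (9.77% and 11.3% of all tested probes did). Their median difference was 0.53, against -0.05 for all tested probes. Of these 42, 30 belong to lists of genes for lipid storage, fatty acid oxidation, glucose metabolism, nuclear receptors, proteolysis and autophagy, redox balance and muscle. Several of the names break off after the first word in the files, and those probes are given by that word alone. Contigs without a name may hold further probes for these genes and are counted above without one.

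The autophagy and proteolysis probes held the largest rise among the named genes. Of 8 probes, all tested, 4 rose and 0 fell, where 9.77% and 11.3% of all tested probes did. Their median difference was 0.72, against -0.05 for all tested probes. Outside the list, the proteasome probes PSMA1 and MSS1 were tested and neither rose. They differed by -0.34 and -0.0035 (adjusted p = 0.158 and 0.989, limma). Calpastatin, the endogenous inhibitor of the calpain proteases, stood at 3.89, 4.24, 3.95 and 4.08 at day 3 in cultures 4, 8, 9 and 10, and at 7.24, 7.24, 6.90 and 6.37 at day 21. The cultures were close together at day 3, culture 10 was lowest at day 21, and the days did not overlap. The rise was 2.90 (standard error 0.21, 95% interval 2.38 to 3.42, adjusted p = 0.00128, limma), a 7.46-fold ratio, and 2.40% of the tested probes had a larger difference. In the mean, calpastatin had made 40.2% of this rise at day 8 and 94.6% at day 15, and all 4 cultures were above their start by day 8 (5.04 to 5.36).

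The calpains that calpastatin inhibits did not pass the test. Calpain 1 was 0.47 higher at day 21 (95% interval 0.11 to 0.83, adjusted p = 0.0543, limma), with a mean of 2.17 at day 3 and 2.64 at day 21. Its differences were 0.48, 0.40, 0.50 and 0.48 in cultures 4, 8, 9 and 10, and the days did not overlap. Calpain 1 was thus higher in each culture by a similar amount, though it passed only in fits with all 16 arrays and in an unpaired analysis of variance of days 3 and 21. Calpain 2 differed by 0.13 (95% interval -0.33 to 0.58, adjusted p = 0.632, limma). The difference between calpastatin and the calpains was not tested.

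LC3B, the ubiquitin-like protein that is lipidated onto the autophagosome membrane, stood at 1.59, 1.57, 2.02 and 1.26 at day 3 and at 2.56, 2.88, 3.15 and 2.50 at day 21. No culture at day 21 was as low as the highest at day 3, and the rise was 1.16 (standard error 0.16, adjusted p = 0.00460, limma). The probe atg12l, named for the ubiquitin-like conjugation protein Atg12, went from 1.60, 1.59, 1.41 and 1.58 to 2.51, 2.06, 2.16 and 2.38. Its rise was 0.73 (standard error 0.16, adjusted p = 0.0185, limma). At day 8 the cultures stood on both sides of their start, with 0.79 and 1.38 in cultures 4 and 8 and 1.94 and 1.95 in cultures 9 and 10. The probe atg4b, for the protease that processes LC3, was well above background on 3 of 4 arrays of day 21, with -4.26 ± 0.50 (SD, n = 4) at day 3 and -4.32 ± 0.55 at day 21. Its difference of -0.05 (95% interval -0.70 to 0.59) turned positive with quantile scaling, normexp correction or the deposited values.

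The probe cathepsine, a lysosomal protease by its name, stood at 7.85, 7.95, 7.82 and 7.66 at day 3 and at 8.78, 8.52, 8.45 and 8.41 at day 21, a rise of 0.72 (standard error 0.16, adjusted p = 0.0180, limma) in 4 of 4 cultures. The days did not overlap. At day 8 cultures 8 and 10 stood at 8.29 and 7.82, above their start, and cultures 4 and 9 at 7.66 and 7.73, below theirs. The probe fbx32, named for an F-box protein known in muscle as a ubiquitin ligase subunit, was well above background on 3 of 4 arrays of day 3 and was 0.83 higher at day 21 (95% interval 0.35 to 1.32, adjusted p = 0.0242, limma). Cathepsine and atg12l no longer passed the adjusted p when any 1 of the 4 cultures was left out (adjusted p from 0.0321 to 0.0688 and from 0.0349 to 0.0766), nor did LC3B without culture 8 (0.0317) or culture 9 (0.0242). With quantile normalization cathepsine (0.0287, limma) and atg12l (0.0211) did not pass either, nor did atg12l with normexp correction (0.0284). Of the 15 alternatives run on both slides, cathepsine passed in 9 and atg12l in 6.

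**Figure D4:**
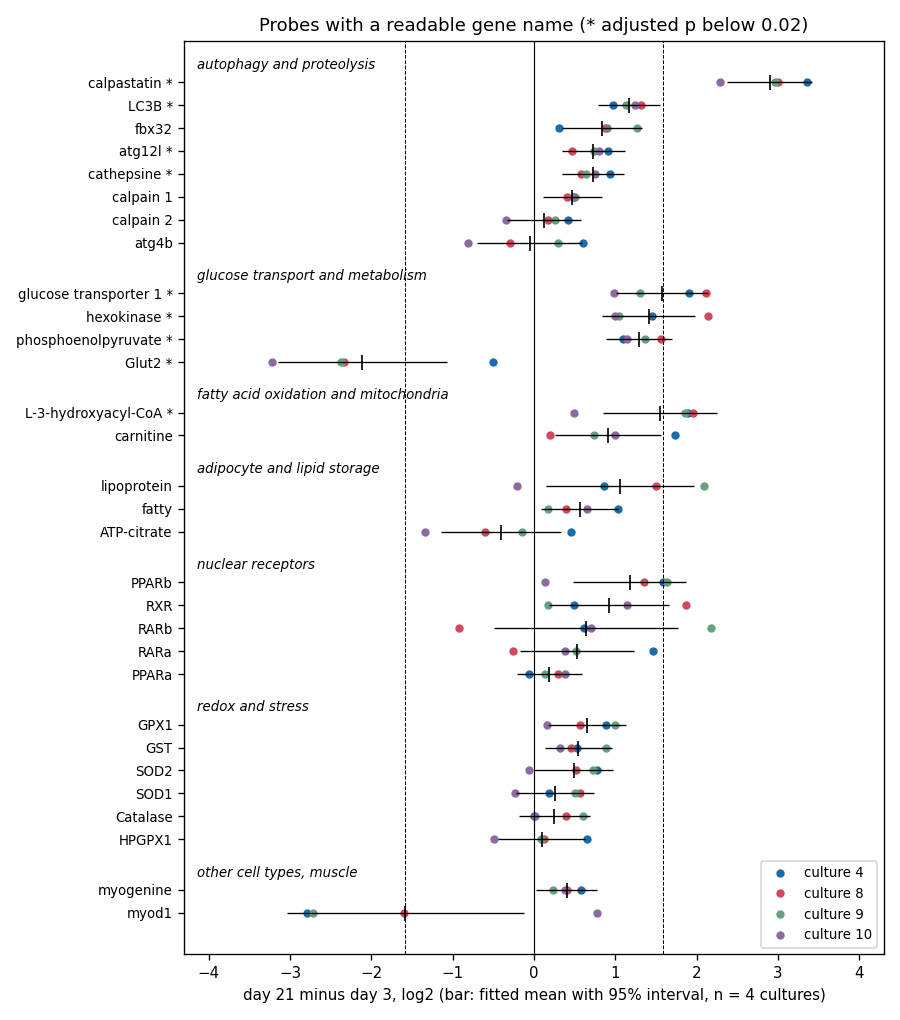
Difference between day 21 and day 3 in log2 units (horizontal axis) for the 30 tested probes with a readable name in the gene lists, with 1 coloured point per culture and a bar at the fitted mean with its 95% interval (n = 4). Dashed lines mark a 3-fold ratio and asterisks the 9 probes with an adjusted p below 0.02, among which calpastatin (2.90) and Glut2 (-2.11) lie farthest to either side.

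Glucose uptake and metabolism was represented by 6 probes, of which 4 were tested. Of these, 3 rose and 1 fell, where 9.77% and 11.3% of all tested probes did. The median difference was 1.35, against -0.05 for all tested probes. Glucose transporter 1, the transporter of basal glucose uptake in most mammalian cells, stood at 0.89, 1.12, 1.33 and 1.21 at day 3 and at 2.79, 3.22, 2.64 and 2.20 at day 21. The lowest culture at day 21 was above the highest at day 3. The rise was 1.57 (standard error 0.23, adjusted p = 0.00606, limma), a 2.98-fold ratio just under the limit for a call, and the cultures had reached 1.83 to 2.60 at day 8.

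Hexokinase, which phosphorylates glucose after its entry, stood at -3.02, -3.18, -2.64 and -3.41 at day 3 and at -1.56, -1.04, -1.59 and -2.42 at day 21. The days did not overlap, and the rise was 1.41 (standard error 0.24, adjusted p = 0.00826, limma). The mean was already -1.41 at day 8, above that of day 21 (-1.65), and was highest at day 15 (-1.07), but in cultures 4 and 8 the level of day 8 (-1.63 and -1.48) was below that of day 21. The probe phosphoenolpyruvate, a name that breaks off and that begins the name of phosphoenolpyruvate carboxykinase, the enzyme of gluconeogenesis and glyceroneogenesis, went from -0.58, -1.24, -1.18 and -0.50 to 0.52, 0.31, 0.18 and 0.65. The days did not overlap here either, and the rise was 1.29 (standard error 0.16, adjusted p = 0.00407, limma). At day 8 cultures 8 and 9 had reached 0.21 and 0.56, whereas cultures 4 and 10 were at -0.48 and -0.37, close to their start.

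The Glut2 probe, for the transporter known from mammalian liver and pancreatic beta cells, moved the other way. It stood at -0.00, -1.97, -1.51 and -0.58 at day 3 in cultures 4, 8, 9 and 10, and at -0.51, -4.31, -3.89 and -3.80 at day 21. Culture 4 hardly moved, so that its level at day 21 was above 3 of the 4 levels at day 3, whereas the other cultures ended far lower. The difference was -2.11 (standard error 0.43, 95% interval -3.15 to -1.07, adjusted p = 0.0141, limma), a 4.32-fold ratio and a call in the paired fit. Without the pairing by culture the adjusted p was 0.0777, and leaving out culture 8, 9 or 10 gave 0.0647, 0.0545 and 0.0372.

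Glucose transporter 1 and hexokinase did not pass the adjusted p without culture 4, 8 or 9 (adjusted p from 0.0224 to 0.0331 and from 0.0263 to 0.0331), nor did phosphoenolpyruvate without culture 8 (0.0280) or 9 (0.0224). Over all alternatives, the fits within single slides included, the 3 differences lay between 1.40 and 1.82, 1.07 and 1.55, and 1.06 and 1.41. Glucokinase was well above background on 0 of the 8 arrays, and glucose-6-phosphatase on 2 arrays of day 3 and 0 of day 21, so neither was tested.

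Of the 2 probes for fatty acid oxidation, 1 rose (9.77% of all tested probes did). The probe L-3-hydroxyacyl-CoA, whose name breaks off before that of the dehydrogenase of mitochondrial beta-oxidation, stood at 2.24, 2.14, 2.07 and 2.78 at day 3 and at 4.12, 4.09, 3.93 and 3.27 at day 21. Culture 10 had the highest level at day 3 and the lowest at day 21, and its difference of 0.49 was far below the 1.85 to 1.95 of the other cultures. The rise was 1.55 (standard error 0.29, adjusted p = 0.0112, limma), and leaving out culture 4, 8 or 9 gave adjusted p of 0.0393, 0.0567 and 0.0478. The probe carnitine, possibly for the acyltransferase that brings fatty acids into mitochondria, was well above background on 3 of 4 arrays of day 3 and was 0.91 higher at day 21 (95% interval 0.26 to 1.56, adjusted p = 0.0439, limma).

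**Figure D5:**
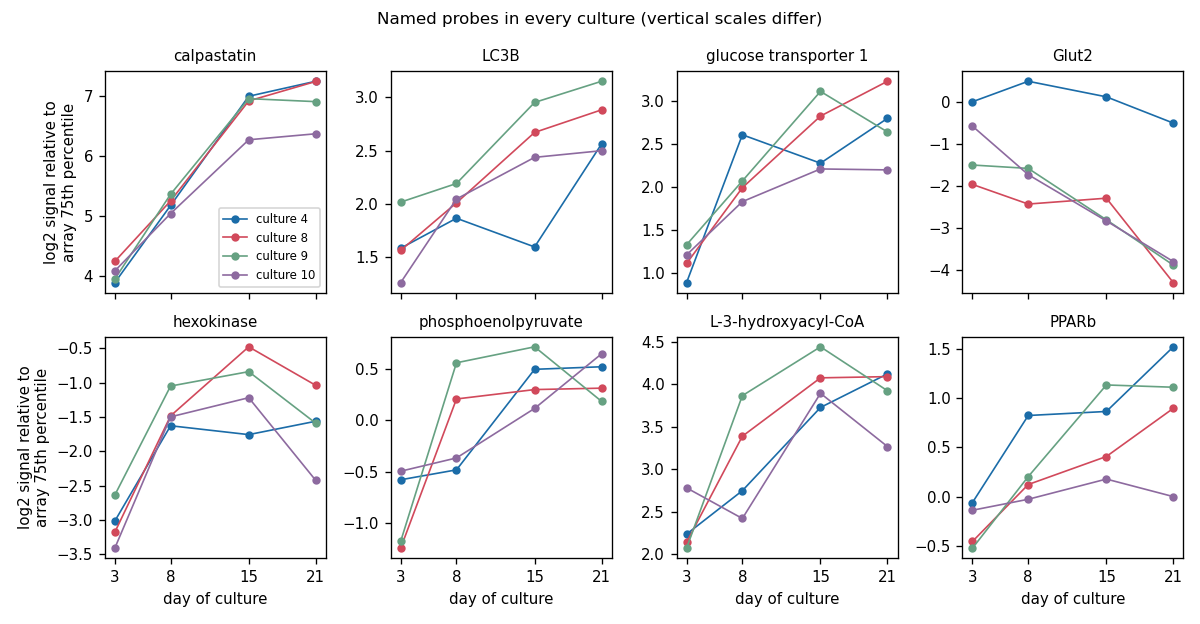
Log2 signal relative to the 75th percentile of the array (vertical axes, scales differ between panels) of 8 named probes at days 3, 8, 15 and 21, with 1 line per culture. Calpastatin, LC3B, glucose transporter 1, hexokinase, phosphoenolpyruvate and L-3-hydroxyacyl-CoA ended above their start in all 4 cultures, and culture 4 of Glut2 stayed near its start (-0.00 and -0.51).

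The list for adipocytes and lipid storage holds 31 genes, for which 3 readable probes were found. Their names break off and do not identify a gene, so their place in the list is uncertain. None of the 3, all tested, passed the test (21.1% of all tested probes did). Lipid storage genes as a whole were not tested. The probe lipoprotein stood at -1.15, -1.25, -2.11 and -2.06 at day 3 and at -0.29, 0.25, -0.02 and -2.27 at day 21. It was higher at day 21 in 3 of 4 cultures, but culture 10 ended at the lowest level of all, and the difference was 1.06 (95% interval 0.15 to 1.97, adjusted p = 0.0740, limma). Without culture 10 the adjusted p was 0.0188. The probe fatty differed by 0.56 (95% interval 0.08 to 1.04, adjusted p = 0.0722), and ATP-citrate, possibly the lyase that supplies acetyl-CoA for fatty acid synthesis, by -0.41 (95% interval -1.15 to 0.33, adjusted p = 0.336), a sign that turned with normexp correction. The median of the 3 differences was 0.56.

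By readable names, few defining markers of mature adipocytes were available. The probe for PPARg, the master regulator of adipogenesis in mammals, was well above background on 0 of the 16 arrays. Whether the transcript was absent or the probe failed to detect it cannot be told from these arrays. The perilipin, adiponectin, lipase and fatty acid binding protein genes of the marker list have no probe with a full readable name. The lists for the cell cycle, the IGF system, the extracellular matrix, leukocytes, endothelial cells and erythrocytes likewise had 0 readable probes. Probes of marker genes were not looked up by the identifiers that the study gives for its qPCR genes. The names given to the cells of both days were thus not checked here.

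Of the nuclear receptors, 5 of 6 probes were tested and 0 passed the test (21.1% of all tested probes did), with a median difference of 0.64. PPARb, a receptor of fatty acids that is widely expressed in mammals, stood at -0.06, -0.46, -0.52 and -0.14 at day 3 and at 1.52, 0.90, 1.11 and 0.00 at day 21. The days did not overlap, although culture 10 hardly moved, and the difference was 1.18 (95% interval 0.48 to 1.87, adjusted p = 0.0249, limma). Its adjusted p was below 0.02 in 7 of 17 alternatives, among them the fit without pairing (0.0191), the fit to all 16 arrays (0.00114) and the fit without culture 10 (0.00644). RXR, the partner with which PPARs bind DNA, differed by 0.92 (95% interval 0.19 to 1.65, adjusted p = 0.0594). PPARa, the receptor linked to fatty acid oxidation in liver, differed by 0.19 (95% interval -0.21 to 0.58, adjusted p = 0.406), and the retinoic acid receptor probes RARa and RARb by 0.52 and 0.64 (adjusted p = 0.206 and 0.328).

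The 6 redox probes, all tested, gave 0 rises and 0 falls (9.77% and 11.3% of all tested probes rose and fell), with a median difference of 0.37. GPX1, a glutathione peroxidase, stood at 5.12, 5.11, 4.69 and 5.67 at day 3 and at 6.00, 5.67, 5.68 and 5.83 at day 21. The highest culture at day 3 lay just below the lowest at day 21, and the difference was 0.65 (95% interval 0.17 to 1.13, adjusted p = 0.0477, limma). GST, a glutathione S-transferase, differed by 0.54 (adjusted p = 0.0517) and the mitochondrial superoxide dismutase SOD2 by 0.49 (adjusted p = 0.108). SOD1 and Catalase each differed by 0.25 (adjusted p = 0.354 and 0.324). HPGPX1 differed by 0.09 (adjusted p = 0.777), a sign that turned with normexp correction.

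Muscle genes were included as markers of another cell type. Of 4 readable probes in the list, 2 were tested and 0 passed the test (21.1% of all tested probes did). The probe myod1, for the factor that commits cells to the muscle lineage, was well above background on all 8 arrays and stood at -1.18, -2.59, -1.99 and -2.18 at day 3, and at -3.97, -4.19, -4.71 and -1.41 at day 21. It was lower at day 21 in cultures 4, 8 and 9 and higher in culture 10. The difference was -1.58 (95% interval -3.04 to -0.12, adjusted p = 0.0891, limma), and the adjusted p was 0.00830 without culture 10. The probe myogenine, for a later factor of the same family, differed by 0.40 (adjusted p = 0.0966). Outside the list, the muscle probes mrf4, fast mlc1, fast mlc3 and skelemin were not tested. Fast mlc3 lacked a value in culture 4 at day 3 and differed by -0.03, 0.51 and 0.62 in cultures 8, 9 and 10. The part of muscle cells in the changes of other probes was not tested.

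Outside these lists 3 named probes passed the adjusted p and are given here because they did, so their choice followed their values. The probe LDL, a name that may be cut short, fell from 0.78, 1.14, 1.09 and 0.87 to 0.40, -0.14, -0.77 and -0.50, a difference of -1.22 (adjusted p = 0.0170, limma). It did not pass without culture 8, 9 or 10 (adjusted p from 0.0474 to 0.0729), with the deposited values (0.0249) or in the unpaired analysis of variance of days 3 and 21 (0.0232). The probe scleraxis, for a tendon transcription factor, was 1.19 higher at day 21 (adjusted p = 0.0114), although the days overlapped because the cultures differed at both. Without the pairing its adjusted p was 0.125, and without culture 4, 8 or 10 it was 0.0316 to 0.0547. A further probe, spelled scl?raxis in the files, differed by 0.52 (adjusted p = 0.334), with differences of 1.89, 0.65, -0.24 and -0.24 in the 4 cultures. LOC100136786, matched by its RefSeq accession, rose by 0.94 (adjusted p = 0.0168), from 0.96 ± 0.11 to 1.90 ± 0.37 (SD, n = 4), but did not pass when any 1 culture was left out (adjusted p from 0.0270 to 0.0801).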

How the data were processed

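From the 16 one-colour arrays the authors deposited the spot intensity values extracted with Agilent Feature Extraction 10.7.3.1, background-subtracted but not normalized between arrays. A further deposited table holds GeneSpring's normalized log2 values. Set against the scanner signals, these were shifted by 1 constant per array (within 0.01 for 100% of the probes) to a common median of 6.77. The other deposited columns used are flags of the scanner software.

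Control spots and outlier spots (8 to 258 per array of days 3 and 21) were left out, repeated spots were averaged, and the 75th percentile of the array was subtracted on the log2 scale from the processed signal. The 8 arrays were fitted with limma 3.58.1 in R 4.3.3, with day and culture as terms. This fit had 3 residual and 3.14 prior degrees of freedom, and the number of cultures limits the precision. The limits for a call, an adjusted p of 0.02 and a ratio of 3, follow the p and fold change criteria of the study, here with Benjamini-Hochberg adjustment. Other values and the plots were made in Python 3.11.15 with pandas 2.3.3 and matplotlib 3.10.9. Sequences and genome positions of the probes are not analysed here.

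Named are all tested list probes with a readable name, the 5 largest rises and falls among called probes well above background on all 8 arrays, and the 2 with the smallest standard error in each direction. The members, lists and tests were chosen with earlier results of these data known. Of 7 RefSeq accessions, 4 were matched to the table for USDA_OmykA_1.1, used for names only. In simulated data with 200 changed probes among 40391, 39% of 4-fold changes were called with 0 false calls, and 78% of 8-fold changes with 2. In the data 8503 probes (21.1%) passed the adjusted p, and the adjustment depends on that share. The simulated shares therefore do not measure the sensitivity or error of this comparison.

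Cultures pair the arrays because each is 1 pool of fish. Within a culture, the deviations from the mean of each day correlated across probes at 0.07 to 0.39, and 3 of 4 arrays of day 3 correlated best with their own culture. Alternatives were fits without the block, with all 16 arrays, with slide and within slides. Others were changed normalizations, filters and background corrections, the deposited values, an unpaired analysis of variance of the end points and omission of single cultures. Normexp was run with an offset of 50 on the median signal.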

Additional observations from a re-analysis of the deposited data

Results flagged for a closer look

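In 141 groups of 4 arrays or 4 culture differences, the gap between the highest or lowest value and the rest was compared with the whole range by Dixon's ratio, and 9 groups lay past its 95% critical value for 4 values. Chance gives about 1 in 20 such groups. All values are log2 relative to the 75th percentile of the array.

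The calpain 1 probe was lowest in culture 9 at day 3, at 2.02 against 2.22 to 2.23 in the other cultures. The atg12l probe was also lowest in culture 9 at day 3, at 1.41 against 1.58 to 1.60. At day 21 culture 9 stood out for the GST probe, with 7.06 where the others had 6.71 to 6.76.

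In culture 4 at day 21, the Glut2 probe stood at -0.51 against -4.31 to -3.80, the carnitine probe at -2.72 against -4.23 to -3.99, and the atg4b probe at -3.51 against -4.68 to -4.49. In culture 10, the probe L-3-hydroxyacyl-CoA had a difference between the days of 0.49 against 1.85 to 1.95. TC115364 stood at 1.15 in culture 10 at day 21 against 3.82 to 3.97, and its difference between the days was 5.07 in that culture against 8.37 to 8.51.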

How the results depend on the processing

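The paired fit rests on the block for culture. Without the replicate block 3133 probes were called (1486 higher, 1647 lower) and 8723 passed the adjusted p alone, and among the named probes with a call or a rise or fall, Glut2 (adjusted p = 0.0777, limma) and scleraxis (0.125) lost theirs without pairing, while PPARb gained one (0.0191). With the block and all 16 arrays, 3727 probes were called, but 14948 passed the adjusted p alone (6877 higher, 8071 lower), and with slide as a further term 14400 did (6639 and 7761).

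Normexp background correction gave 1841 called probes (968 higher, 873 lower), and its added offset of 50 shrinks ratios at low signal by construction. It moved the median difference of all probes by 0.10. Without the filter on dim probes 3711 passed the adjusted p (1733 higher, 1978 lower), over more probes tested. Within slide 1, 3859 passed it (1780 higher, 2079 lower), and within slide 2 limma gave 0 calls and 0 past the adjusted p in either direction, with 1 array of day 3. An unpaired analysis of variance of the end points alone called 3155 probes before adjustment of the p. After Benjamini-Hochberg adjustment it called 2120 (1045 higher, 1075 lower). The study's own analysis of variance spanned the days of the culture and was not rerun. Leaving out 1 culture gave from 1427 to 3653 called probes (711 to 1658 higher, 716 to 1995 lower) and from 1488 to 7979 past the adjusted p (736 to 3658 higher, 752 to 4321 lower). The lowest numbers were without culture 8 (1427 called), and without culture 4 and culture 9 2715 and 2394 were called and 3860 and 2967 passed the adjusted p.

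In single cultures, the median share of the difference present at day 8 among higher probes moved to 54.4% in culture 4 and 64.6% in culture 10, and at day 15 to 87.8% in culture 4 and 99.8% in culture 9. Among lower probes it moved to 65.4% at day 8 in culture 9, and at day 15 to 79.2% in culture 8 and 96.2% in culture 9. The causes of these moves were not tested.

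The sign turned in 13 alternatives, all but the last for probes that did not pass the adjusted p. The atg4b difference was 0.17 with quantile normalization, 0.27 with normexp, 0.068 with the deposited values, 0.0084 with slide as a term, 0.22 within slide 1, and from -0.27 to 0.20 without 1 culture (0.027 without culture 8). ATP-citrate was at 0.051 with normexp and 0.0093 within slide 1. HPGPX1 was at -0.00098 with normexp, -0.096 within slide 2 and from -0.098 to 0.29 without 1 culture. Scleraxis was at -0.091 within slide 2. Of the other 780 values for single probes under an alternative, 666 kept their direction and side of the threshold, 92 lost the threshold and 22 gained it. Arrays limit what dim probes can show, since on their low day 92 higher and 166 lower called probes had 0 arrays well above background.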

Other observations

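A group of probes that carry a GenBank accession of the older format, 1 letter and 5 digits, was noticed after the values were seen. Of 56 such probes 39 were tested, 2 of these were called higher and 14 lower at day 21 (35.9%, against 4.39% of all tested probes). For 6 of the 14 no array of day 21 was well above background. The median difference of the 39 was -1.18, against -0.05 for all tested probes. The files do not pair these accessions with gene names, and as a list chosen on its values it was not tested.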
